A study of Mus musculus with 60 samples.

Results

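Dexamethasone was compared with its solvent in R1 cells, an established mouse embryonic stem cell line. The 3 dexamethasone arrays came from cells given 0.1 mM dexamethasone in 0.1% DMSO for 6 h, and the 3 reference arrays came from cells given 0.1% DMSO alone for 6 h. The labels spell the compound Dexamethazone, class it as a teratogen and take its dose from the concentration that lowered viability by 10%. All arrays hold RNA of undifferentiated cells that had been grown on feeder cells and depleted of them before exposure, so every group shares that background. The arrays were chosen by their treatment label, 6 of 60 in all. The other 54 arrays are 18 further compounds at 3 arrays each, among them 0.024 mM all-trans retinoic acid and 0.043 mM loratadine, and they served to estimate the spread and as a second reference. The labels do not say that the 3 arrays of a group came from separate cultures, so the p-values below measure the spread between arrays, which may be technical. R1 is a single line, and bulk RNA cannot tell fewer cells of a type from less RNA per cell.

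Dexamethasone is a synthetic glucocorticoid. It binds the glucocorticoid receptor, a nuclear receptor held in the cytoplasm by heat shock proteins, which then enters the nucleus, raises genes with glucocorticoid response elements and lowers many inflammatory genes that other factors drive. Cholesterol synthesis is controlled by another route: when sterol in the membrane of the endoplasmic reticulum is low, the protein SCAP carries SREBP transcription factors to the Golgi, where they are cut free, and they then raise nearly every enzyme from acetyl-CoA to cholesterol. INSIG proteins hold SCAP back when sterol is plentiful. The promoters of the pathway typically pair a sterol regulatory element with a CCAAT box, which the factor NF-Y binds.

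The leading change was in that pathway, so the promoters of 5 of its enzymes that rose are shown. Each run is the 150 bases before the gene's start in RefSeq (GRCm38.p6), on the gene's own strand, with CCAAT or its reverse complement ATTGG in capitals. In Hmgcs1 a match to TCACNCCAC, one form of the sterol regulatory element, is also in capitals.
Hmgcs1, chr13:119690201-119690350, plus strand: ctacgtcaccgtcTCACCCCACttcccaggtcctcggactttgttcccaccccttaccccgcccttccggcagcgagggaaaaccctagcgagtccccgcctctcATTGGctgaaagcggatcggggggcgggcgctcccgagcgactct
Cyp51, chr5:4104698-4104847, minus strand: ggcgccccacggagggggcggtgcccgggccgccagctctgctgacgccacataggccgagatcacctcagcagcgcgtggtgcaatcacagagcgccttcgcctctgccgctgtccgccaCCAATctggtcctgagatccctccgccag
Msmo1, chr8:64733579-64733728, minus strand: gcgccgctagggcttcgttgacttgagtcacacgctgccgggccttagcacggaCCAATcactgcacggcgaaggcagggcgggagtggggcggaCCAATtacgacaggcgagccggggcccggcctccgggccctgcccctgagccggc
Nsdhl, chrX:72918371-72918520, plus strand: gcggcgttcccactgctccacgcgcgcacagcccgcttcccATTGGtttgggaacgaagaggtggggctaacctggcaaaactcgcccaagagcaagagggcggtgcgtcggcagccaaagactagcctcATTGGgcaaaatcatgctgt
Idi1, chr13:8885456-8885605, plus strand: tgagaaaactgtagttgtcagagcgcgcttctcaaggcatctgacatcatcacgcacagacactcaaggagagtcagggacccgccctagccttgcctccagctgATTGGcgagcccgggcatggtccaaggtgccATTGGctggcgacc

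Motifs were searched on both strands in the 250 bases before each start, and the motifs do not overlap each other's letters in the runs shown. CCAAT was present in all 15 cholesterol synthesis genes that have a promoter in the table, out of 18 measured, against 33.8% of all 32851 promoters. The shares of all promoters count promoters and not genes, and Dhcr7 and Pmvk lacked CCAAT at some of their listed starts. Mvk, Ggps1, Tm7sf2, Ebp and Sc5d, which did not rise, carry CCAAT too, so it does not set apart the genes that rose. TCACNCCAC was present in 1 of the 15, Hmgcs1, against 1.05% of all promoters. The letters ACANNNTGT, the core of a glucocorticoid response element, were present in none of the 15 and in 5.84% of all promoters. Among the genes with the largest changes, 13 of the 15 that rose and 7 of the 14 that fell have a promoter in the table, and ACANNNTGT was in none of these. A match is a description of letters in this window, a gene counts when any of its listed starts has one, and glucocorticoid response elements often lie far from the start.

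The signals are log2 values that the authors made with RMA, which summarises the probes of a set, and 21789 probe sets with a single gene symbol were tested. A probe set counts as called at a Benjamini-Hochberg adjusted p under 0.05 in limma, fitted to all 60 arrays, and "rose" and "fell" below are used of called genes only. The 6 arrays were not equally close to each other. The interquartile range of the signals was 3.12, 3.09 and 2.998 on dexamethasone replicates 1, 2 and 3, against 3.20, 3.11 and 3.23 on the DMSO arrays. Dexamethasone replicate 3 also had the highest 5th percentile of the 6, 4.38 against 4.11 to 4.21 on the others, and it is the only one of the 6 whose title carries the letter b, whose meaning is not stated. Its root mean square difference was 0.299 from dexamethasone 1 and 0.266 from dexamethasone 2, while those 2 differed by 0.185 and pairs of DMSO arrays by 0.128 to 0.182. Dexamethasone 2 lay nearer to DMSO 1 and DMSO 2, at 0.151 and 0.132, than to the other dexamethasone arrays. Stem cell markers were bright on all 6 arrays: the mean of 8 markers, Pou5f1 and Sox2 among them, was 12.46, 12.46 and 12.31 with dexamethasone and 12.48, 12.44 and 12.49 with DMSO.

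In all, 1361 probe sets were called (6.25%), of which 329 rose (1.51%) and 1032 fell (4.74%). The changes were small: none reached 2-fold, 12 rose and 5 fell by 1.5-fold or more, and the median log2 fold change over all probe sets was -0.006. Without dexamethasone replicate 3, 675 were called (3.1%), 162 higher (0.743%) and 513 lower (2.35%), and 373 of the 1361 kept their call and direction. Replicate 3 was the dexamethasone array farthest from DMSO in 862 of the 1361 (63.3%), replicate 1 in 420 (30.9%) and replicate 2 in 79 (5.8%). When the model took in each array's interquartile range as a covariate, 239 were called (1.1%), 129 higher (0.592%) and 110 lower (0.505%). Rises made up a share of the calls that moved with such choices, namely 24.2% with the deposited values, 39.4% after quantile normalisation, 54.0% with the covariate and 10.5% among probe sets brighter than the median. In a model of the 6 arrays alone, 1 probe set, of Msmo1, was called (adjusted p = 0.0352, limma), with 1566 at an unadjusted p under 0.05. Other single arrays mattered too, with 165 calls when DMSO replicate 3 was left out, 549 when DMSO replicate 1 was and 2955 when dexamethasone replicate 2 was. All 3 dexamethasone arrays lay above all 3 DMSO arrays in 1210 probe sets (5.55%) and below them in 2093 (9.61%). With 3 arrays a group such separation also arises often by chance, so alone it is weak evidence. The named genes with the largest changes were taken from 80 probe sets that rose (0.367%) and 263 that fell (1.21%) with and without replicate 3 and with no overlap between groups, a rule that used this contrast. Every gene picked by this rule had to be called without replicate 3 and show no overlap. For those genes neither trait is a separate check. Because the calls depended on replicate 3, many of the results, though not all, are also given without it.

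**Figure D1:**
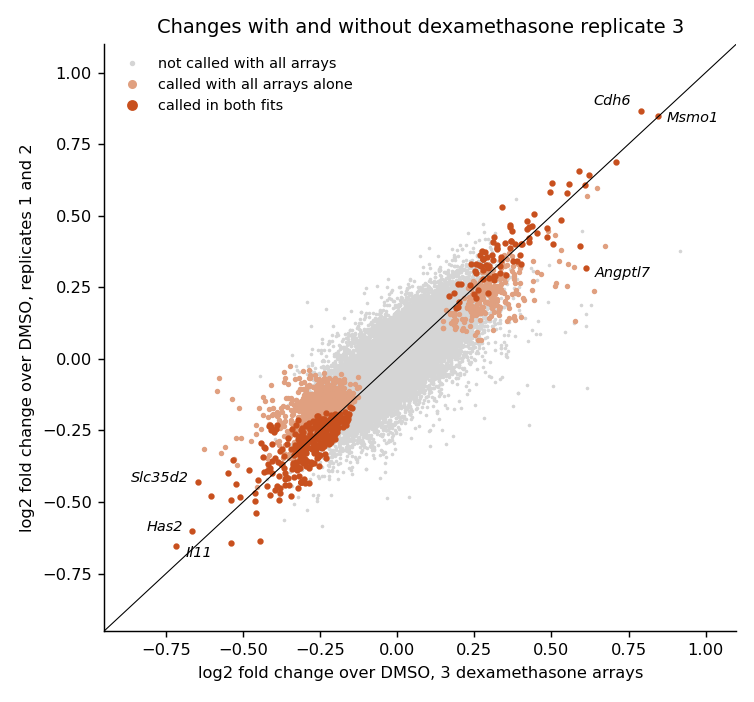
Log2 fold change of each of 21789 probe sets over DMSO, with 3 dexamethasone arrays (x axis) and with replicates 1 and 2 (y axis); the line marks equal values. Dark points were called in both fits, pale points with 3 arrays but not without replicate 3, and grey points were not called with 3 arrays; Msmo1 and Cdh6 lie on or above the line at the top, Il11 and Has2 close to it at the bottom, and Angptl7 and Slc35d2 nearer to 0 without replicate 3.

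Genes that make cholesterol rose together with dexamethasone. Of 18 measured cholesterol synthesis genes, 13 rose and none fell, where 1.51% of all probe sets rose and 4.74% fell; the median log2 fold change of the 18 was 0.40. Without replicate 3 the counts were again 13 and 0, with a median of 0.44, and with the interquartile range covariate they were 14 and 0. Without DMSO replicate 3, 11 were higher, and in the model of the 6 arrays alone 1 of the 18, Msmo1, was called. The values follow in the order of the pathway.

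Hmgcs1, which makes HMG-CoA at the head of the pathway, had a log2 signal of 11.80, 11.73 and 11.68 on the 3 dexamethasone arrays and 11.14, 11.20 and 11.22 on the 3 DMSO arrays. Each dexamethasone array exceeded each DMSO array, and the log2 fold change was 0.55 ± 0.05 (limma SE, 3 arrays a group, adjusted p = 1.11e-10 in limma). Standard errors of fold changes, here and below, use a spread pooled over the 20 groups of the 60 arrays. Pairs of dexamethasone arrays had root mean square differences of 0.185 to 0.299, against a median of 0.133 within a group. These standard errors may therefore be too small for dexamethasone. The next enzymes convert mevalonate to isoprenoid units. Mvk, mevalonate kinase, was at 9.88, 9.90 and 9.77 with dexamethasone and 9.76, 9.69 and 9.80 with DMSO; the groups overlapped and it was not called (0.10, adjusted p = 0.326). Pmvk, the kinase after it, rose by 0.32 (adjusted p = 0.0101) but missed the threshold without replicate 3 (0.25, adjusted p = 0.0727). Mvd, the decarboxylase that ends this stretch, rose by 0.33 (adjusted p = 0.00382). Idi1, the isomerase whose promoter carries 2 ATTGG runs, was at 11.15, 11.29 and 11.27 with dexamethasone and 10.83, 10.67 and 10.85 with DMSO, a rise of 0.45 ± 0.07 (adjusted p = 3.44e-05).

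Fdps, which joins isoprenoid units to farnesyl diphosphate, was at 11.91, 11.73 and 11.59 with dexamethasone and 11.34, 11.38 and 11.39 with DMSO, and rose by 0.37 ± 0.06. At this point the pathway branches. Ggps1, which leads to geranylgeranyl diphosphate instead of to sterols, was at 8.82, 8.94 and 9.25 with dexamethasone and 9.10, 9.03 and 9.17 with DMSO and was not called (-0.09, adjusted p = 0.521). Fdft1, squalene synthase, which commits the flow to sterols, was at 12.51, 12.31 and 12.42 with dexamethasone and 11.84, 11.73 and 11.83 with DMSO. Its rise of 0.61 ± 0.05 had the smallest adjusted p of the list, 2.52e-12, and its second probe set rose by 0.49. The dexamethasone mean ranked 1 among the 20 groups by the first probe set and 3 by the second.

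Squalene is then closed into the ring system. Sqle, squalene epoxidase, was at 11.06, 11.20 and 11.05 with dexamethasone and 10.64, 10.66 and 10.69 with DMSO, a rise of 0.44 ± 0.05. Lss, lanosterol synthase, was at 10.87, 10.81 and 10.50 with dexamethasone and 10.18, 10.21 and 10.29 with DMSO, a rise of 0.50 ± 0.07. For Lss replicate 3 was the dexamethasone array closest to DMSO, and the rise was 0.62 without it.

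The largest rises were among the enzymes that strip methyl groups from lanosterol. Msmo1, a methylsterol oxidase, was at 11.23, 11.06 and 11.14 with dexamethasone and 10.31, 10.24 and 10.35 with DMSO, means of 11.15 ± 0.09 and 10.30 ± 0.06 (SD, n = 3 each). Its log2 fold change of 0.84 ± 0.07, or 1.80-fold, was the largest of any named gene, and it was 0.85 without replicate 3. Cyp51, the lanosterol demethylase that azole antifungals inhibit in fungi, was at 9.51, 9.24 and 9.44 with dexamethasone and 8.65, 8.56 and 8.85 with DMSO, a rise of 0.71 ± 0.08. Nsdhl, the dehydrogenase that works beside Msmo1, was at 10.97, 10.76 and 10.80 with dexamethasone and 10.15, 10.27 and 10.24 with DMSO, a rise of 0.62 ± 0.05. Each of these genes had all dexamethasone arrays above all DMSO arrays. Among the 20 groups the dexamethasone mean ranked 3 for Msmo1 and Cyp51 and 2 for Nsdhl, so other compounds had higher means. Hsd17b7, the reductase of the same stretch, rose by 0.42 ± 0.06 (adjusted p = 2.38e-05). Tm7sf2, a sterol reductase, was not called (0.12, adjusted p = 0.448).

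The last steps moved less. Dhcr7, which makes cholesterol from 7-dehydrocholesterol, was at 9.79, 9.93 and 9.67 with dexamethasone and 9.45, 9.55 and 9.51 with DMSO, a rise of 0.29 ± 0.08 (adjusted p = 0.0185). Ebp, the sterol isomerase, was not called at 0.00 (adjusted p = 0.997). Sc5d, the desaturase before Dhcr7, was at 10.06, 10.05 and 9.64 with dexamethasone and 9.72, 9.72 and 9.82 with DMSO. Here 2 arrays were high and replicate 3 was the lowest of the 6, so Sc5d was not called with all arrays (0.16, adjusted p = 0.148) but was higher without replicate 3 (0.30, adjusted p = 0.0055). Acat2 was not analysed here.

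**Figure D2:**
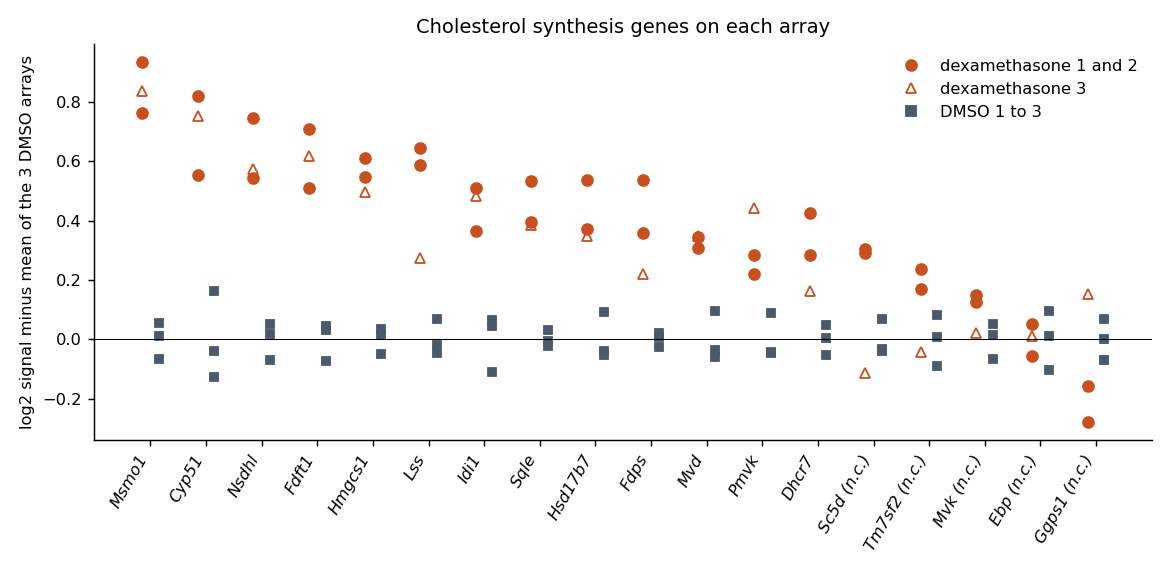
Log2 signal of the 18 measured cholesterol synthesis genes on each array, less the mean of the 3 DMSO arrays; filled circles are dexamethasone 1 and 2, open triangles dexamethasone 3, squares DMSO 1 to 3, and n.c. marks genes that were not called. In the 13 genes that rose every dexamethasone array lies above every DMSO array, with Msmo1 farthest from DMSO, while for Sc5d the triangle lies below the squares.

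Of 16 measured genes of sterol uptake and its control, 1 rose and 2 fell, against 1.51% and 4.74% of all probe sets; without replicate 3 there were 2 higher and 1 lower. Insig1, the brake on SCAP and itself an SREBP target, was at 10.33, 10.69 and 10.35 with dexamethasone and 9.95, 9.76 and 9.98 with DMSO. It rose by 0.56 ± 0.08 (adjusted p = 3.08e-05), with no overlap between groups. Abcg1 and Abca1, exporters of sterol that LXR receptors switch on, fell by 0.28 and 0.25. For Abcg1 the arrays were at 8.41, 8.45 and 8.32 with dexamethasone and 8.69, 8.69 and 8.64 with DMSO, and the call held without replicate 3 (adjusted p = 0.012), where that of Abca1 did not (adjusted p = 0.264). The SREBP genes themselves were not called: Srebf2 changed by 0.14 (adjusted p = 0.142) and Srebf1 by 0.03 (adjusted p = 0.888), and Scap by -0.10 (adjusted p = 0.374). Stard4, a sterol carrier, was 0.19 higher without reaching the threshold (adjusted p = 0.0913). Soat1 and Nr1h2 were not analysed here.

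Of 19 fatty acid synthesis genes, which SREBP factors also control, 5 rose and none fell (1.51% of all probe sets rose), again with 5 and 0 without replicate 3 and a median of 0.06; without DMSO replicate 3 it was 3 and 0. All 5 work late in the pathway or beside it. Scd1, the stearoyl-CoA desaturase, was at 10.52, 10.50 and 10.31 with dexamethasone and 9.88, 9.73 and 9.94 with DMSO, a rise of 0.59 ± 0.07 (adjusted p = 4.01e-08). Fads2, a desaturase of polyunsaturated fatty acids, rose by 0.40, Scd2 by 0.32, Aacs, which activates acetoacetate for lipid synthesis, by 0.24, and the elongase Elovl6 by 0.18. The core enzymes were not called: Fasn, fatty acid synthase, was at 12.06, 11.998 and 11.45 with dexamethasone and 11.81, 11.81 and 11.85 with DMSO (0.01, adjusted p = 0.952). Its value rested on replicate 3, without which Fasn was 0.21 higher (adjusted p = 0.0465).

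Most textbook glucocorticoid targets did not pass the test. Of 35 measured genes of the glucocorticoid response list, 2 rose and none fell, where 1.51% of all probe sets rose, with a median log2 fold change of 0.05. Without replicate 3 there were 4 higher and 1 lower. The number higher was 1 when dim probe sets were left out, 5 with array weights and 0 in the model of the 6 arrays. Tsc22d3, also called GILZ, a direct target that mediates anti-inflammatory effects, was at 7.31, 7.07 and 7.05 with dexamethasone and 6.59, 6.85 and 6.88 with DMSO. It rose by 0.37 ± 0.08 (adjusted p = 0.00592), the groups did not overlap, and dexamethasone had the highest Tsc22d3 mean of the 20 groups. Sgk1, a kinase that regulates sodium transport, was at 10.99, 10.89 and 10.80 with dexamethasone and 10.78, 10.60 and 10.76 with DMSO, a rise of 0.18 ± 0.05 (adjusted p = 0.0204). Both calls held without replicate 3.

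Fkbp5, a co-chaperone of the receptor that responds in most tissues, was at 10.51, 10.52 and 10.59 with dexamethasone and 10.53, 10.39 and 10.53 with DMSO, a difference of 0.06 ± 0.06 (adjusted p = 0.625). Per1, a clock gene, changed by 0.11 (adjusted p = 0.364), Zbtb16 by 0.07, Dusp1, a phosphatase that restrains MAP kinases, by 0.06, and Klf9 by -0.19 (adjusted p = 0.166). None of these 5 was called. Ddit4 and Errfi1, the inhibitors of mTOR and of EGF receptor signalling, were higher only without replicate 3 (0.32, adjusted p = 0.0142, and 0.22, adjusted p = 0.00845), and Gadd45b was then lower (-0.27, adjusted p = 0.039). Probe sets of Glul, glutamine synthetase, disagreed. The brighter, which stands for the gene in the list, was not called (-0.02), while the other was at 11.51, 11.72 and 11.53 with dexamethasone and 11.95, 11.999 and 12.07 with DMSO and fell by 0.42 ± 0.06. Tns1 also had 1 of 6 probe sets that rose (0.34, adjusted p = 0.0229), and its brightest was not called.

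The receptor gene gave a signal. Nr3c1, the glucocorticoid receptor, was at 8.36, 8.35 and 8.42 with dexamethasone and 8.47, 8.45 and 8.62 with DMSO, a difference of -0.14 ± 0.05 (adjusted p = 0.111). Every dexamethasone array lay below every DMSO array, but the difference did not pass the test. Of 19 genes of the receptor machinery, 2 fell and none rose, where 4.74% of all probe sets fell: Ncoa2, a coactivator of steroid receptors, by 0.17 (adjusted p = 0.0392), and Smarca4, the ATPase of the BAF remodelling complex, by 0.16 (adjusted p = 0.0449). Neither was called without replicate 3, and the list then had no call. Hsp90aa1 and Fkbp4, chaperones of the receptor, changed by 0.01 and 0.04. Of 16 targets of xenobiotic receptors, which high dexamethasone doses can activate through PXR in liver, 1 fell, Alas1, the first enzyme of heme synthesis (-0.23, adjusted p = 0.00607), and none rose. The call of Alas1 was lost without replicate 3 (-0.18, adjusted p = 0.057), and no gene of the list was called after quantile normalisation, with the interquartile range covariate or when DMSO replicate 3 was left out. Cyp3a11, the standard PXR target in mouse liver, was at 4.10, 3.89 and 4.44 with dexamethasone and 3.95, 3.90 and 4.21 with DMSO and was not called.

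Several inflammatory and secreted genes that glucocorticoids are known to repress fell. Of 31 measured genes of that list, 7 fell and 1 rose, against 4.74% and 1.51% of all probe sets, and the median of the list was -0.03. Like the other lists, this list was chosen with earlier results of these data known. Its counts are therefore not independent of the data when set against all probe sets. Without replicate 3 there were 6 lower and 2 higher, with the interquartile range covariate 5 and 0, and without DMSO replicate 3 4 and 0. Il11, a cytokine of the IL-6 family, was at 7.71, 7.59 and 7.45 with dexamethasone and 8.28, 8.26 and 8.37 with DMSO. It fell by 0.72 ± 0.07 (adjusted p = 1.84e-10), was 0.65 lower without replicate 3 (adjusted p = 3.99e-08), and had its lowest mean of the 20 groups with dexamethasone. Has2, which makes the matrix polysaccharide hyaluronan, was at 9.29, 8.93 and 8.92 with dexamethasone and 9.76, 9.64 and 9.75 with DMSO and fell by 0.67 ± 0.07 (adjusted p = 2.94e-09). Ptgs2, the inducible cyclooxygenase, was at 11.74, 11.40 and 11.04 with dexamethasone and 11.85, 11.97 and 11.95 with DMSO. Its arrays spread over a wide range and replicate 3 was the lowest, so the fall of 0.53 ± 0.08 shrank to 0.35 without it (adjusted p = 0.00148).

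Plau, the urokinase protease, was at 7.30, 7.55 and 7.16 with dexamethasone and 7.86, 7.71 and 8.01 with DMSO, a fall of 0.52 ± 0.08. The chemokines Ccl7 and Ccl2 fell by 0.31 and 0.29, and the EGF family ligand Ereg by 0.28. Ccl7 kept its call without replicate 3 (adjusted p = 0.0245), while Ccl2 (adjusted p = 0.0527) and Ereg (adjusted p = 0.212) did not. The gene that rose was Tnf, at 7.07, 7.12 and 7.12 with dexamethasone and 6.95, 6.85 and 6.66 with DMSO (0.29, adjusted p = 0.0229; 0.28, adjusted p = 0.0667 without replicate 3). The other 23 members, Il6, Lif, Nos2 and Icam1 among them, were not called with all arrays. The 2 genes that were higher without replicate 3 were among these 23.

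Feeder fibroblasts also express several of these secreted genes, so their markers were read on the same arrays. Of 17 fibroblast genes, 1 fell, Pdgfrb (-0.24, adjusted p = 0.0186), and none rose, where 4.74% of all probe sets fell. Pdgfrb was not called without replicate 3 (-0.18, adjusted p = 0.128), nor was any other of the 17. The mean signal of the 17 was 8.66, 8.72 and 8.66 with dexamethasone and 8.67, 8.72 and 8.67 with DMSO, inside the range of the other 54 arrays, 8.59 to 8.87. Col1a1 and Col3a1, the main collagens of fibroblasts, changed by -0.05 and 0.08 and Thy1 by -0.11, and none of them was called. Among 21 hyaluronan and matrix genes, Has2 fell and Hmmr, a hyaluronan receptor that also serves the mitotic spindle, rose (0.24, adjusted p = 0.0388). The call of Hmmr was lost without replicate 3 (0.20, adjusted p = 0.146), and Has1, Has3 and Cd44 were not called.

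**Figure D3:**
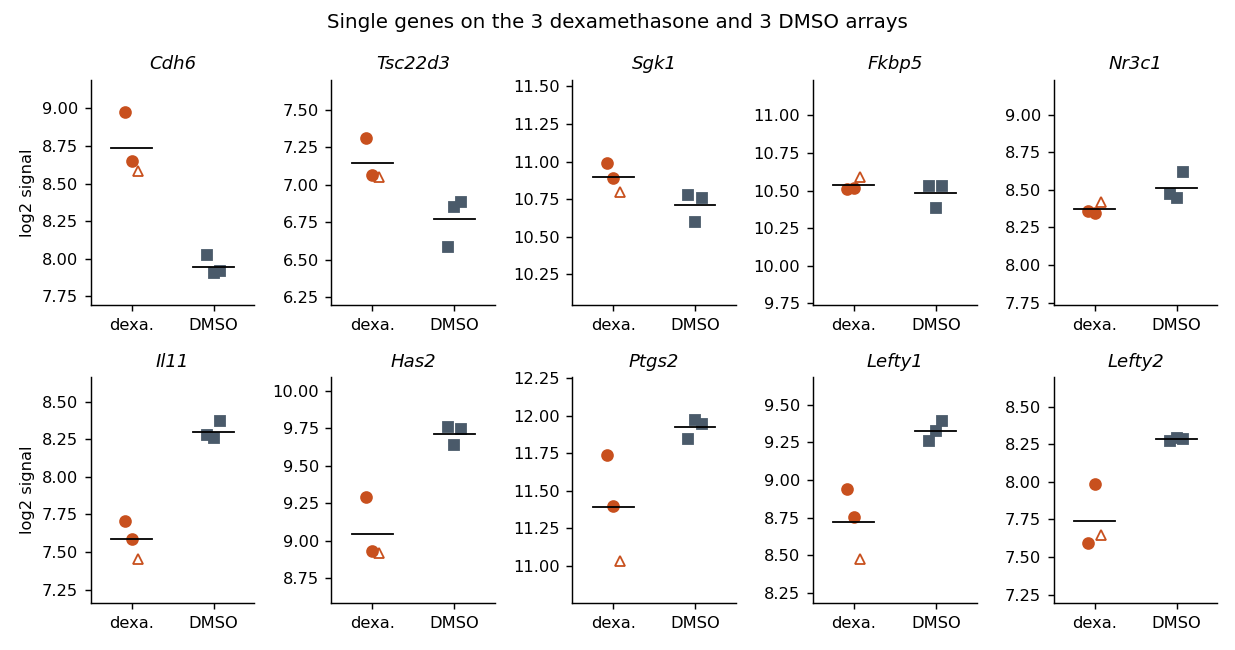
Log2 signal of 10 genes on the 3 dexamethasone arrays (left of each panel; the open triangle is replicate 3) and the 3 DMSO arrays (right), with the mean of each group as a line; every panel spans the same log2 range. Cdh6, Tsc22d3 and Sgk1 lie higher with dexamethasone, Fkbp5 overlaps, Nr3c1 lies slightly lower without being called, and Il11, Has2, Ptgs2, Lefty1 and Lefty2 lie lower.

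Outside lipid synthesis the largest rise was in a cell adhesion gene. Cdh6, cadherin 6, was at 8.98, 8.65 and 8.58 with dexamethasone and 8.02, 7.90 and 7.92 with DMSO, means of 8.74 ± 0.21 and 7.95 ± 0.06 (SD, n = 3 each). It rose by 0.79 ± 0.09 (adjusted p = 4.01e-08), by 0.87 without replicate 3, and dexamethasone had the highest mean of the 20 groups. Most of its relatives were not called: of 25 cadherin and adhesion genes, 2 rose (Cdh6 and the protocadherin Pcdh10, 0.25) and 1 fell (Pcdh18, -0.32). The other 22 were not called, where 1.51% of all probe sets rose and 4.74% fell. With replicate 3 left out, 2 of the 25 were higher and 2 lower. Pcdh10 was not called without replicate 3 (0.16, adjusted p = 0.257). Cdh1, Cdh2 and Epcam were not called. For Fat3, an atypical cadherin outside that list, 1 of 15 probe sets is given, a dim one with a mean of 6.08 over the 60 arrays. It was at 6.37, 6.30 and 6.43 with dexamethasone and 5.90, 6.02 and 5.72 with DMSO and rose by 0.49 (adjusted p = 0.00186). The other probe sets of Fat3 are not described here.

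The other large rises were of single genes. Chrna9, a subunit of nicotinic acetylcholine receptors, was at 9.96, 9.83 and 10.03 with dexamethasone and 9.35, 9.47 and 9.40 with DMSO and rose by 0.53 ± 0.06. Dexamethasone had the highest Chrna9 mean of the 20 groups. Rdh11, a retinal reductase, was at 9.89, 9.91 and 10.50 with dexamethasone and 9.46, 9.43 and 9.63 with DMSO, and its rise of 0.59 shrank to 0.39 without replicate 3. Angptl7, a secreted angiopoietin-like protein, depended more on that array: it was at 8.13, 8.11 and 9.01 with dexamethasone and 7.84, 7.77 and 7.81 with DMSO, a rise of 0.61 that was 0.32 without replicate 3 (adjusted p = 0.0317). Dnajb4, a co-chaperone of HSP70, rose by 0.50 (0.40 without replicate 3) and was the 1 member to rise among 16 heat shock genes, none of which fell. For comparison, 1.51% of all probe sets rose and 4.74% fell. With replicate 3 left out, 2 of the 16 were higher and 1 was lower.

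Of 18 genes of the Nodal and Lefty list, 5 fell and none rose, against 4.74% and 1.51% of all probe sets, and 3 of the 18 were lower without replicate 3. The same number was lower when DMSO replicate 3 was left out instead. With the interquartile range covariate 3 were lower (Lefty1, Lefty2 and Pcsk6) and 1 higher (Dact1, 0.23). Lefty1 and Lefty2 are secreted inhibitors that Nodal signalling switches on. Lefty1 was at 8.94, 8.75 and 8.48 with dexamethasone and 9.26, 9.32 and 9.39 with DMSO, a fall of 0.60 ± 0.09 (adjusted p = 1.98e-05), or 0.48 without replicate 3. Lefty2 was at 7.595, 7.98 and 7.65 with dexamethasone and 8.27, 8.29 and 8.28 with DMSO, a fall of 0.54 ± 0.09. In both genes the groups did not overlap, as the rule that picked the largest changes required. The dexamethasone mean of each ranked 17 among the 20 groups, counted from the highest, so some other compounds had lower means. Against loratadine neither was called (Lefty1 0.17, adjusted p = 0.116, and Lefty2 0.04, adjusted p = 0.707, limma). Pcsk6, a protease that matures Nodal, fell by 0.30, Smad3, a transducer of the pathway, by 0.21, and Tdgf1, the Nodal co-receptor Cripto, by 0.19. Nodal itself changed by -0.05 and was not called.

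Of 20 BMP and Id genes, 3 fell and none rose, where 4.74% of all probe sets fell. Grem1, a secreted BMP antagonist, was at 7.82, 8.16 and 8.01 with dexamethasone and 8.43, 8.40 and 8.55 with DMSO. It fell by 0.46 ± 0.07 and was the 1 BMP gene called without replicate 3 (-0.47, adjusted p = 0.000709) and with the interquartile range covariate (adjusted p = 0.000604). Id3 and Id2, inhibitors of bHLH factors, fell by 0.46 and 0.26; for Id3 replicate 3 was far below the others, at 8.40 against 9.05 and 9.12 on dexamethasone 1 and 2. Sfrp2, a secreted modulator of Wnt signals, was at 8.90, 8.83 and 8.58 with dexamethasone and 9.19, 9.17 and 9.39 with DMSO and fell by 0.48 (adjusted p = 4.74e-05). None of 20 Wnt feedback genes was called, Axin2 at 0.04 among them.

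Of 22 genes of FGF signalling and its feedback, 6 fell and none rose: Spry4 (-0.32), Fgf5 (-0.26), Spred1 (-0.22), Fgfr2 (-0.21), Dusp6 (-0.20) and Spry2 (-0.18). Of all probe sets 4.74% fell. Without replicate 3 there were 2 lower, Fgfr2 and Dusp4, and 1 higher, Fgf4, and none was called with the interquartile range covariate or without DMSO replicate 3. Fgf4 was at 12.22, 11.96 and 11.07 with dexamethasone and 11.82, 11.87 and 11.87 with DMSO, so replicates 1 and 2 lay above all DMSO arrays and replicate 3 far below them.

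Pluripotency genes stayed bright and a few fell slightly. Of 26 genes of naive pluripotency, 3 fell and none rose, where 4.74% of all probe sets fell: Prdm14 by 0.26, Nanog by 0.24 and Nr0b1 by 0.21. Nanog was at 12.39, 12.60 and 12.18 with dexamethasone and 12.65, 12.64 and 12.61 with DMSO, and none of the 3 was called without replicate 3 or with the interquartile range covariate. Pou5f1, Sox2, Klf4, Esrrb and Zfp42 were not called. Of 20 genes that mark the formative and primed epiblast, 9 fell and none rose (4.74% of all probe sets fell), led by Pim2 (-0.42), Zic5 (-0.41), Sall2 (-0.29) and Fgf15 (-0.28), and without replicate 3 the number was 5. Leaving out DMSO replicate 3 gave 2 lower genes. The interquartile range covariate also gave 2 of the 20, Pim2 (adjusted p = 0.0228) and Sox4 (adjusted p = 0.046). The 2 probe sets of Zic5 disagreed, the other standing at 0.01. Of 24 lineage genes, 1 rose, Foxa2 (0.26), and 2 fell, Nes (-0.31) and Eomes (-0.25), against 1.51% and 4.74% of all probe sets. Without replicate 3 Eomes alone of the 24 was called (-0.30, adjusted p = 0.0167), and with the interquartile range covariate or without DMSO replicate 3 none was.

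Genes of the amino acid response that ATF4 controls rose in part. Of 29 measured members 7 rose and none fell, where 1.51% of all probe sets rose; 10 were higher without replicate 3, 5 with the interquartile range covariate and 2 without DMSO replicate 3. Chac1, a glutathione-degrading enzyme, was at 9.64, 9.73 and 9.42 with dexamethasone and 8.99, 9.25 and 9.07 with DMSO, a rise of 0.49 ± 0.08 (adjusted p = 0.00023). Slc7a1, a carrier of cationic amino acids, was at 10.36, 9.98 and 9.59 with dexamethasone and 9.60, 9.70 and 9.61 with DMSO, so replicate 3 lay among the DMSO arrays and the rise of 0.34 became 0.53 without it. Slc7a11, Stc2, Trib3, Nupr1 and Slc6a9 rose by 0.27 to 0.28. Atf4, Ddit3 and Asns were not called with all arrays. Of 25 measured genes of the list of chaperones of the endoplasmic reticulum and the unfolded protein response, 7 fell, none rose and 18 were not called, where 4.74% of all probe sets fell. The falls were led by Derl3, a part of the machinery that removes misfolded proteins (-0.33), the co-chaperone Dnajb9 (-0.29), Ern1, a sensor kinase of the response (-0.26), and Manf (-0.22). Without replicate 3, 6 were lower and Herpud1 was higher (0.28), none of the 25 was called with the interquartile range covariate, and 1 was without DMSO replicate 3.

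The remaining lists had few calls, to be read against the 4.74% of all probe sets that fell and the 1.51% that rose. Of 22 hypoxia and glycolysis genes 3 fell (Egln1, Egln3 and Ldha, -0.28 to -0.16), of 27 cell cycle genes 4 fell and Ccna2 rose (0.17), and of 17 ribosomal protein genes 3 fell. Without replicate 3 the hypoxia and glycolysis list had 1 lower, Egln1, and 3 higher, Adm (0.47), Slc2a1 (0.16) and Pgam1 (0.14), and it had no call with the interquartile range covariate. The cell cycle list then had 1 lower, Bub1 (-0.17), and none higher, and the ribosomal list 1 lower, Rps18. Of 22 NRF2 targets 2 rose (Slc7a11 and Pgd, 0.19), of 21 p53 targets 1 fell (Perp, -0.22) and of 21 YAP and SRF targets 2 fell (Actg2 and Ajuba). Pgd, Perp and Actg2 kept their calls without replicate 3, while Slc7a11 and Ajuba did not. None of 24 immediate early genes and none of 25 lysosome and autophagy genes was called with all arrays. Several single genes outside the lists fell. Slc35d2, a carrier of nucleotide sugars, was at 6.85, 7.09 and 6.32 with dexamethasone and 7.36, 7.42 and 7.43 with DMSO and fell by 0.65, or 0.43 without replicate 3. Lpar4, a receptor for lysophosphatidic acid, was at 8.87, 9.03 and 9.06 with dexamethasone and 9.42, 9.41 and 9.51 with DMSO and fell by 0.46, or 0.50 without replicate 3. Swsap1, Tdpoz3, the gasdermin Gsdme and the mitotic kinase Pbk fell by 0.55, 0.54, 0.51 and 0.46. The rule that picked these genes required a call without replicate 3, and the calls did not hold under every other alternative. Tdpoz3 and Pbk were not called with the interquartile range covariate (adjusted p = 0.181 and 0.141). Swsap1 and Gsdme were not called with array weights (adjusted p = 0.0887 and 0.0573). The Gsdme probe set, 1 of 2 of that gene, was dim, with a mean of 4.87 over the 60 arrays.

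**Figure D4:**
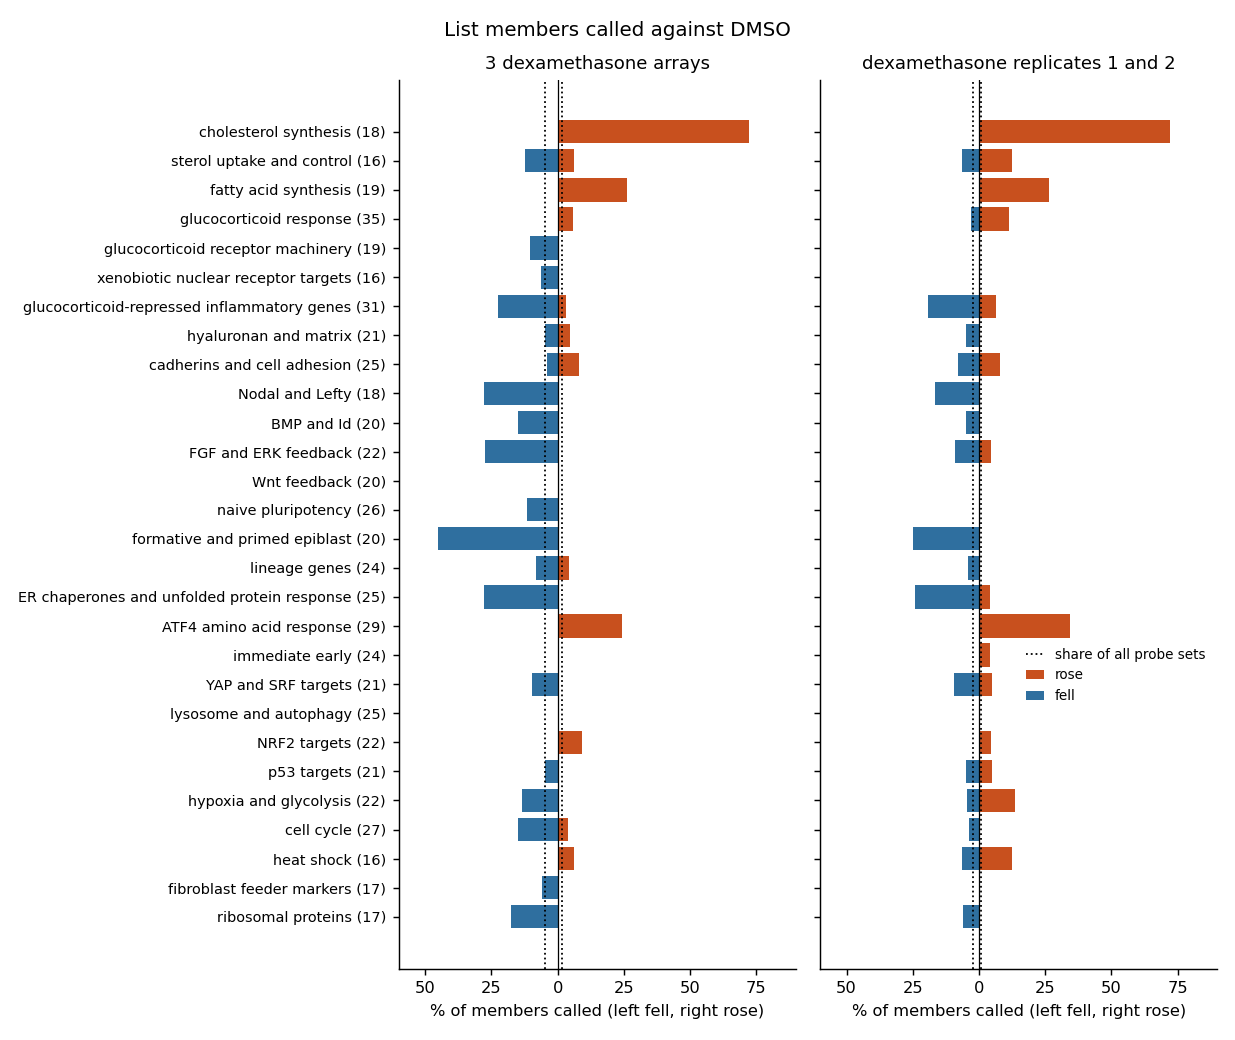
Share of the measured members of 28 gene lists (number in brackets) that rose (right of 0) or fell (left of 0) against DMSO, with 3 dexamethasone arrays (left panel) and without replicate 3 (right panel); dotted lines mark the share of all 21789 probe sets. Cholesterol synthesis stands at 13 of 18 in both panels, and most of the bars to the left are shorter without replicate 3.

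The DMSO arrays are shared by every compound of the study, so dexamethasone was also set against arrays that are not DMSO, with the same 3 dexamethasone arrays. Against the mean of the other 18 compounds 7466 probe sets were called (34.3%), 2953 higher (13.6%) and 4513 lower (20.7%), and without replicate 3 4363 were called (20.0%), 1481 higher (6.8%) and 2882 lower (13.2%). With the interquartile range covariate the count was 560. Of the 18 cholesterol synthesis genes 13 were higher and 2 lower than in the other compounds, with a median difference of 0.28, and 13 and 2 without replicate 3. Msmo1 was 0.65 higher, Cyp51 0.56 higher and Hmgcs1 0.49 higher. Upward, Cdh6 differed by 0.68 (0.76 without replicate 3) and Gml by 0.70 (0.42 without replicate 3), while Trdn (0.84), Olfr1382 (0.73) and Rny1 (0.64) rested on replicate 3: Olfr1382 was at 4.75, 5.43 and 7.25 on the 3 dexamethasone arrays. The largest downward were Slc35d2 (-0.68), Il11 (-0.64), Oaz2 (-0.63) and Has2 (-0.60), each also called without replicate 3. Chac1 did not differ detectably from the other compounds (0.00, adjusted p = 0.963), and of the 29 amino acid response genes 1 was higher and 3 were lower.

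Loratadine, an antihistamine classed as a non-teratogen, and retinoic acid, a nuclear receptor ligand classed as a teratogen, were set against dexamethasone directly. Their doses differ from that of dexamethasone. Against loratadine 8839 probe sets were called (40.6%), 4308 higher (19.8%) and 4531 lower (20.8%) with dexamethasone. Without dexamethasone replicate 3 the count was 7604. Of the 18 cholesterol synthesis genes 1 was higher with dexamethasone, 10 were lower and 7 were not called. Among the 13 of them that rose against DMSO, 1 was higher and 7 were lower than with loratadine. With dexamethasone replicate 3 left out, none of the 13 was higher and 4 were lower. Hmgcs1 averaged 11.74 with dexamethasone and 11.74 with loratadine, a difference of 0.00 (95% interval -0.10 to 0.10). Msmo1 averaged 11.15 with dexamethasone and 11.48 with loratadine (difference -0.34, 95% interval -0.48 to -0.19), and Dhcr7 averaged 9.80 with dexamethasone and 10.46 with loratadine (difference -0.67, 95% interval -0.82 to -0.51). Fdft1 was 0.12 higher with dexamethasone (95% interval 0.02 to 0.22), a call that was lost without replicate 3 (adjusted p = 0.0864), and its second probe set did not share the difference (-0.04, adjusted p = 0.583). For Cyp51 (-0.25 to 0.08), Sqle (-0.13 to 0.06), Fdps (-0.20 to 0.03) and Pmvk (-0.23 to 0.07) the 95% interval of the difference in brackets held 0. Of the 29 amino acid response genes 22 were lower with dexamethasone than with loratadine and 1 was higher, and Ddit3, a stress factor of that response, was lower with dexamethasone (-1.44).

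Against retinoic acid 6933 probe sets were called (31.8%), 3336 higher (15.3%) and 3597 lower (16.5%) with dexamethasone. Without dexamethasone replicate 3 the count was 5859. Of the 18 cholesterol synthesis genes 13 were higher with dexamethasone and 2 lower, with a median difference of 0.42. Msmo1 averaged 11.15 with dexamethasone and 10.26 with retinoic acid, a difference of 0.89 (95% interval 0.75 to 1.03), also 0.89 without replicate 3. Scd1 did not follow the sterol genes here, at 10.44 with dexamethasone and 10.35 with retinoic acid (difference 0.09, 95% interval -0.05 to 0.23). The largest differences downward were in Cyp26a1, the enzyme that degrades retinoic acid (-4.22), the peptide carrier Slc15a1 (-2.17), the casein gene Csn3 (-2.16) and the homeobox gene Meis2 (-2.11), and the largest upward was in the homeobox gene Otx2 (1.51). The 13 sterol genes that rose against DMSO were chosen by the same dexamethasone arrays, so these counts are not independent of that choice.

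**Figure D5:**
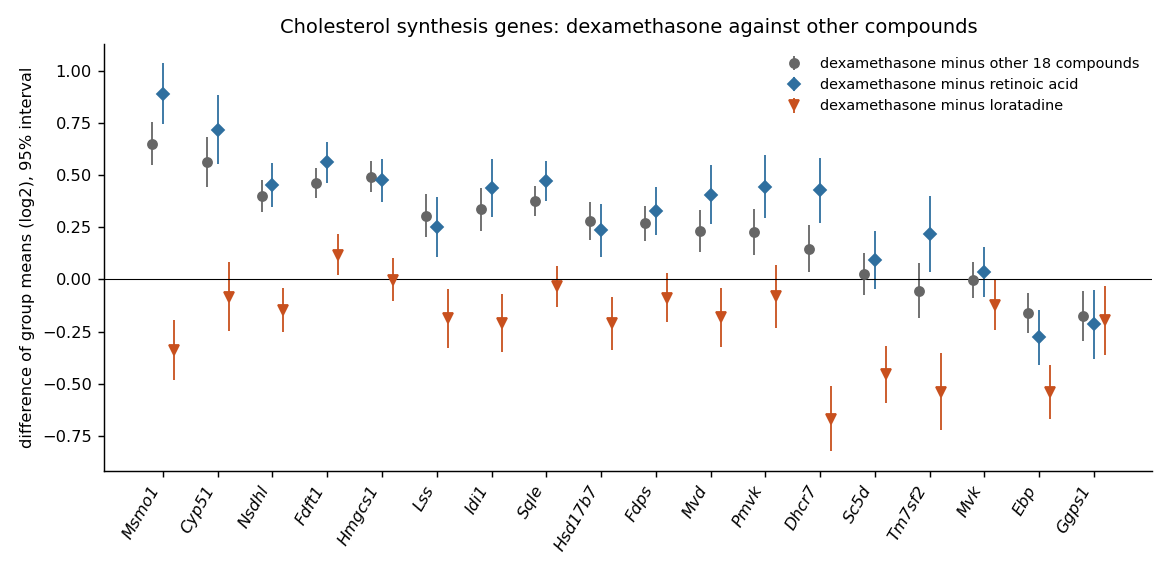
Difference of group means in log2 signal, with its 95% interval, between dexamethasone and the other 18 compounds (circles), retinoic acid (diamonds) and loratadine (triangles) for the 18 cholesterol synthesis genes, ordered by their change against DMSO. The genes on the left lie above 0 against the other 18 compounds and retinoic acid and near or below 0 against loratadine, with Dhcr7 at -0.67.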

How the data were processed

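Total RNA was labelled as biotinylated cDNA and hybridised to Affymetrix mouse gene arrays, per the labels' protocols. The authors deposited a log2 signal for each probe set and array, made with RMA per the submitters' processing notes. Version, options and genome build were not given in the sources used here. Values of 35556 probe sets on 60 arrays were present, none missing. The platform annotation gives a single gene symbol to 21789 probe sets (19938 symbols), several to 1621 and none to 12146; 21698 of the 21789 had their gene ID in RefSeq, with 0 symbols updated. Array data have no read depth, and 3 arrays a group limit the precision.

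The deposited log2 values were fitted with limma 3.58.1 in R 4.3.3 (lmFit, a mean per group over 20 groups, eBayes with defaults, 40 residual and 7.31 prior degrees of freedom). P-values were adjusted over the 21789 probe sets within each contrast, and called means an adjusted p under 0.05. The fit was tested on simulated data. The brightest probe set over all arrays stands for a gene in a list; of 631 listed genes in 28 lists, 587 were measured. Genes named are the 16 largest rises and the 14 largest falls of probe sets called both with and without dexamethasone replicate 3 with no overlap between groups, any member of the sterol and glucocorticoid lists, up to 8 called members of other lists (the 2 largest where none was called), and the largest differences against other compounds; other members are named as not called, and genes called only without replicate 3, second probe sets and single values given to show replicate 3 were chosen after their values were seen. The members and lists were chosen with earlier results of these data known. Promoter sequences are from RefSeq, build GRCm38.p6. Alternatives were quantile normalisation, a filter on dim probe sets, all probe sets, trend and robust settings, array weights, the interquartile range or the letter b as a covariate, the 6 arrays alone, each array left out, and, for lists, the mean over a gene's probe sets.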

Additional observations from a re-analysis of the deposited data

Results flagged for a closer look

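Probe sets that the annotation gives several gene symbols or none lie outside the comparisons above. When all 35556 probe sets were tested together, 364 of these 13767 were called with dexamethasone against DMSO (2.64%; 146 rose and 218 fell), compared with 4.96% of the 21789 probe sets with a single symbol in the same fit. They carry no name here.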

How the results depend on the processing

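No paired analysis was possible because replicates were numbered by accession order alone, which pairs nothing. The 1361 calls of dexamethasone against DMSO became 239 with the interquartile range as a covariate and 1 in the model of the 6 arrays, and 165 to 2955 with an array left out: 165 without DMSO replicate 3, 549 without DMSO replicate 1, 675 without dexamethasone replicate 3 and 2955 without dexamethasone replicate 2. The 7466 calls against the other 18 compounds became 4787 without dim probe sets, 3468 with array weights, 560 with the covariate and 4363 to 7005 with an array left out. The 8839 against loratadine became 5108 without dim probe sets, 2763 with the covariate and 2408 in the model of the 6 arrays, and the 6933 against retinoic acid became 4042, 1881 and 773. Fewer probe sets and fewer arrays enter some of these fits; otherwise the cause was not tested. The count of 13 cholesterol synthesis genes was 1 in the model of the 6 arrays, 11 to 13 with an array left out and 13 to 15 under the other 8 alternatives. The 2 glucocorticoid response genes became 1 without dim probe sets, 5 with array weights, 0 in the model of the 6 arrays and 1 to 4 with an array left out. Of 108 called named probe sets, 66 stayed called without dexamethasone replicate 3, 53 with the covariate, 44 without DMSO replicate 3 and 1 in the model of the 6 arrays. The direction turned for 1, Cdt1, at 0.0052 with array weights (adjusted p = 0.967). The 1361 calls were 1388 without DMSO replicate 2, 1184 after quantile normalisation and 1501 with trend and robust settings.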
